A study of Mus musculus with 55 samples.

Results

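The genes described here encode the factors that start and extend protein synthesis and the proteins of the nucleolus. They were chosen by gene symbol in the array annotation: every symbol that starts with Eif, Eef, Nop or Nol, together with Fbl, Ncl, Npm1, Nme1, Nme2 and Ran. This gave 52 of the 6137 genes that the arrays represent with a probe set of 1 symbol. They were 30 initiation factors, 6 proteins that restrain initiation or elongation, 6 elongation factors, 7 nucleolar proteins, and Nme1, Nme2 and Ran. Npm1 was read only by a probe set that also carries another symbol, so it was left out. Each gene is described by its brightest probe set.

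Initiation factors bring the small ribosomal subunit to the start codon of a messenger RNA. Within the eIF4F complex a DEAD-box helicase, encoded by Eif4a1 or Eif4a2, unwinds the 5′ leader, while the eIF3 complex holds the small subunit. Elongation factors then deliver aminoacyl-tRNA and move the ribosome along. Ribosomal RNA is made and modified in the nucleolus, where nucleolin (Ncl) and the methyltransferase fibrillarin (Fbl) act, and the GTPase Ran drives transport through nuclear pores, ribosomal subunits included. In bone marrow, pre-BI and large pre-BII cells divide, whereas small pre-BII, immature and mature B cells are mostly resting, so these genes can be read against growth.

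RNA was measured in 5 mouse B lineage populations sorted from bone marrow. Pre-BI cells were gated as B220+ c-kit+ (6 preparations, sorts 1, 2, 3, 8, 9 and 10). Large and small pre-BII cells were gated as B220+ CD25+ sIg- (5 preparations each, sorts 1, 2, 8, 9 and 10, and sorts 1, 3, 8, 9 and 10). Immature B cells were gated as B220low sIgM+ and mature B cells as B220hi sIgM+ (5 each, sorts 1, 2, 8, 9 and 11, and sorts 1, 3, 8, 9 and 11); the label of 1 immature array gives no gate. Strain, age and the number of animals are not given in the sources used here, and no treatment is named for any group. Because nothing says that preparations came from separate animals, a p-value reflects only how much these preparations spread, and that spread may be technical. In such bulk samples fewer cells of a type and less RNA per cell cannot be told apart.

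Every preparation was hybridised to 2 array sets with different probe sets, here named first and b. One first-set array, titled as a second mature array of sort 1, was identical in 6584 values to mature sort 11 and was counted once, as sort 11, which left 54 of 55 arrays. The number of arrays limits the precision. A level is a normalised intensity on a linear scale and is compared only between populations for 1 probe set, never between genes. The noise limit was 251 (first set) or 319 (b set). Means are geometric, over values raised to that limit, and differences are between them on the log2 scale, ± SE. A gene is called where limma's adjusted p (Benjamini-Hochberg, over all 10229 tested probe sets) is under 0.05, and "rose" or "fell" is used only then. That p belongs to the fitted difference, which uses a lower floor (87.6 on the former set, 6.89 on the latter) and departs from the raised difference where values lie under the noise limit.

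The labels were checked against markers. The summed level of 5 markers of cycling cells was 12994 to 16466 for pre-BI, 24382 to 26682 for large pre-BII, 1069.6 to 2890.3 for small pre-BII, 544 to 1071 in immature and 389 to 569.6 in mature preparations. The pre-BI markers (Dntt, Igll1, Kit, Vpreb1) summed to 12633 to 20045 in pre-BI and to at most 2317 elsewhere. Kit, which encodes the c-kit of the gate, exceeded the noise limit in only 2 of 6 pre-BI preparations and in none elsewhere. Vpreb1 also exceeded it in 5 large and 4 small pre-BII preparations. Il2ra, which encodes CD25, exceeded the noise limit in 1 small pre-BII preparation only. Granulocyte markers summed to 1828 to 9288 in pre-BI (highest in sort 10) and 1537 to 5623 elsewhere. Of these, Camp, Lcn2, Ngp and S100a9 had their highest mean in pre-BI cells, but S100a8 did not (414 against 412 to 497 elsewhere). Elane exceeded the noise limit in no pre-BI preparation, and Ltf and Mpo in no preparation. Macrophage markers summed to 4118 to 9298 in pre-BI and 1357 to 5774 elsewhere, of which Lyz2 exceeded the limit in all 26 preparations (means of 5299 in pre-BI and 1732 to 3670.2 elsewhere) and Csf1r in none. The erythroid Hba-a1 had means of 8072 to 11103 in the 5 populations. T and NK cell markers summed to 836 to 2985 in pre-BI and at most 790.4 elsewhere. Of these 5 markers Gzma exceeded the limit in all 6 pre-BI preparations (mean 1233) and in 3 large pre-BII ones, Thy1 in 2 of pre-BI, and Cd3e in 2 of large pre-BII, 3 of small pre-BII and 1 of immature cells, while Cd3d and Cd3g were under it in every preparation. An 18S RNA control on the first set read 156 to 18619 in sorts 1 to 3 (11 preparations) and -224 to 68 in sorts 8 to 11 (15 preparations). On the b set these ranges overlapped (-39 to 16530 and -39 to 263). Differences are therefore also given within each of these 2 sets of sorts.

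The sequence upstream of a gene is where growth-linked transcription factors bind, so the starts of the genes on which the results turn are shown first. They are from RefSeq (GRCm38.p6), read 5′ to 3′ on the gene's strand up to the base before its annotated start, with CACGTG in capitals. CACGTG is the E-box hexamer that Myc-Max dimers recognise, and it reads the same on both strands. Shown are the helicase pair Eif4a1 (chr11:69672424-69672673, minus strand) and Eif4a2 (chr16:23107218-23107467, plus strand), whose levels moved in opposite directions, Ran (chr5:129020006-129020155, plus strand), and the neighbouring genes Nme1 (chr11:93968273-93968372, minus strand) and Nme2 (chr11:93956257-93956356, minus strand), of which only Nme2 was called.
Eif4a1: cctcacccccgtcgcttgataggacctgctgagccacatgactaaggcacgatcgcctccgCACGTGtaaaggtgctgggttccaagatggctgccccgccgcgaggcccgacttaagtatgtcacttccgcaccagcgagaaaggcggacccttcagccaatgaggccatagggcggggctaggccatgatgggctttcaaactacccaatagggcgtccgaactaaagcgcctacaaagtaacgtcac
Eif4a2: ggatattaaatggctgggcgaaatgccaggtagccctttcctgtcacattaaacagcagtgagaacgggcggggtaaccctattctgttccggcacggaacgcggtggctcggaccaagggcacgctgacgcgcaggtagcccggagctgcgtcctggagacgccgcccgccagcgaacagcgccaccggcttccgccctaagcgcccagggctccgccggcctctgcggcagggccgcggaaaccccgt
Ran: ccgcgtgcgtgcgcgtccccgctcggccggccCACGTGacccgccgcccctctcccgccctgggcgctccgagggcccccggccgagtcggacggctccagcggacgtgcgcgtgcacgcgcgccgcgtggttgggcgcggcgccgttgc
Nme1: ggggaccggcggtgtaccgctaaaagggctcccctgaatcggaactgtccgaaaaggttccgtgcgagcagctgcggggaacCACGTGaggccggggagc
Nme2: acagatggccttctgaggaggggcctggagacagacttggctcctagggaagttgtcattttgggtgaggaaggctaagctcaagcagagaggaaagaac

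Over windows from 250 bases before to 50 bases after the start, a promoter was found for 41 of the 52 genes. CACGTG was present in 11 of the 41 (26.8%), against 2187 of all 27025 genes with a promoter (8.09%). It was present in 3 of the 7 genes with a promoter that were called higher in the 2 dividing populations (Eif4a1, Eif5a and Ran) and in 3 of the 9 steady genes with a promoter (Eif1b, Eif3a and Nme1). The motif was thus found both in called and in steady genes, and not in Eif4a2 or Nme2. A C at the start followed by at least 4 pyrimidines, the hallmark of terminal oligopyrimidine messages, was found in 1 of 41 (Eif2s3x; 2.44%) against 3.01% of all genes. Only the base at the annotated start was read, so this count depends on where the annotation places the start. Eef1a1, Eef1b2 and Eef2 had no C at that base. Whether these genes lack such starts in the cell was not tested. No other motif was searched. A match of letters is a description and not evidence of binding, and a gene with several annotated starts counts if any window has the match.

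Of the 52 genes, 26 exceeded the noise limit in all 26 preparations, 18 in some and 8 in none. The 8 were Eif3j1, Eif3i, Eif4e, Eif4h, Eif5, Eif6, Eif2ak2 and Eif4enif1, for which these probe sets give no level. In all, 47 genes passed the filter on dim probe sets and were tested. The moderated F test over the 5 populations called 9 of them (19.1%), against 14.8% of all tested probe sets. With sort number as a replicate block it called 14 genes, against 17.7% of all tested probe sets in that fit: Eef1b2, Eif2a, Eif3b, Eif4ebp2, Nop10 and Nop53 were added and Eif4e2 was lost.

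Pre-BI and large pre-BII cells were compared with the 3 later populations, 11 against 15 preparations. Here 9 genes were higher (19.1% of 47, against 7.8% of all tested probe sets) and 1 was lower (against 6.95%), so 21.3% were called against 14.8%. The 9 were Eif4a1, Eif5a, Eif3l and Eif2d among initiation factors, Eef1d among elongation factors, Ncl and Fbl in the nucleolus, and Ran and Nme2. The gene lower in these populations was Eif4a2. The median difference was 0.080 over the 47 genes and 0 over all tested probe sets with values raised to the noise limit. In limma's fit, with its lower floor, it was 0.13 and -0.05, and 34 of 47 fitted differences were positive. The count was 3 within sorts 1 to 3 and 8 within sorts 8 to 11.

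**Figure D1:**
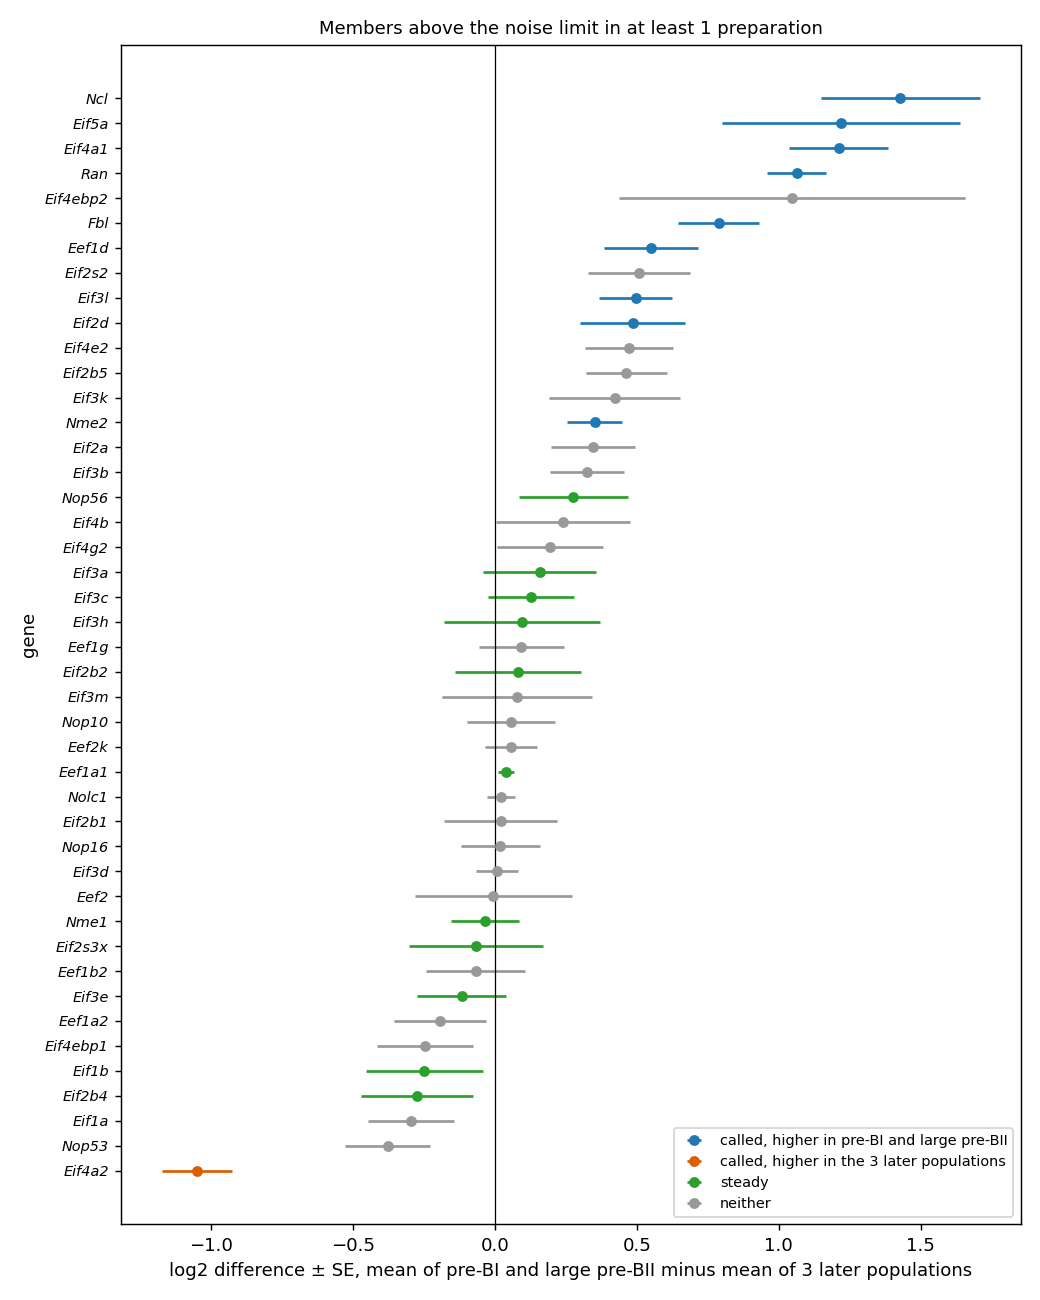
Log2 difference between the mean of pre-BI and large pre-BII and the mean of the 3 later populations (x axis, ± SE, values raised to the noise limit) for the genes above the limit in at least 1 preparation (y axis); blue, called higher; orange, called lower; green, steady; grey, neither. Ncl is at 1.43 and Eif4a2 at -1.05, and Eif4ebp2 has a wide error and was not called.

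Between consecutive populations, large pre-BII against pre-BI cells gave 2 lower genes, Fbl and Nme2 (4.26% of 47, against 0.997% of tested probe sets lower), and none higher (0.87%), so either way against 1.87%. Small against large pre-BII cells gave 4 lower genes, Eif4a1, Ran, Ncl and Eif2b5 (3.27% of tested probe sets lower), and 1 higher, Eif4a2 (2.03%), 10.6% of the 47 in all against 5.3%. With 2% trimmed mean scaling that split was 2 higher and 3 lower, with 75th percentile scaling 0 and 4, and on the values as deposited 0 and 2. Limma called none of the 47 between small pre-BII and immature cells (2.19% of tested probe sets, 1.31% higher and 0.88% lower; 3 genes had an unadjusted p under 0.05) and none between immature and mature cells (1.35%, 0.616% higher and 0.733% lower; 1 gene). Calls between neighbouring populations lay at the 2 early steps, and the 2 calls at the first of these are few. At the 2 later steps few of all tested probe sets were called (2.19% and 1.35%). The absence of calls there does not set these genes apart.

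The pair of initiation helicases moved in opposite directions. Eif4a1 was 1686 to 4743 in pre-BI cells (median 2641) and 1903, 2731, 2826, 2797 and 1441 in large pre-BII cells. It was 781, 815, 725, 1225 and 1171 in small pre-BII, 1141, 1531, 1035, 1035 and 1543 in immature, and 1021, 1234, 1243, 746 and 1363 in mature cells. Every small pre-BII preparation lay under every large one, while large pre-BII sort 10 lay within the range of immature cells. The share of all tested probe sets that separate small from large pre-BII cells was not computed. Eif4a1 fell 2.46-fold from large to small pre-BII cells (-1.30 ± 0.25, adjusted p = 0.00163 by limma), a call lost within sorts 8 to 11. It was 2.31-fold higher in the 2 dividing populations than in the later 3 (1.21 ± 0.17, adjusted p = 1.93e-06 by limma; 1.00 within sorts 1 to 3 and 1.43 within sorts 8 to 11). A second Eif4a1 probe set, on the other array set, gave 1.81-fold between dividing and later cells (0.86, adjusted p = 0.0085 by limma). From large to small pre-BII cells that probe set was not called (-0.90, adjusted p = 0.139 by limma).

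Eif4a2, which encodes the second form of the helicase, ran the other way. It was 1953 to 3922 in pre-BI cells (median 2359) and 2147, 2386, 3063, 2731 and 1921 in large pre-BII cells. It was 5244, 3608, 4458, 5407 and 2939 in small pre-BII, 4103, 5207, 4835, 6219 and 4335 in immature, and 5548, 6585, 7326, 5593 and 7495 in mature cells. All immature and mature preparations lay above all pre-BI and large pre-BII ones, while small pre-BII sorts 3 and 10 fell within the pre-BI range. The share of all tested probe sets that separate in this way was not computed. Eif4a2 rose 1.75-fold from large to small pre-BII cells (0.80 ± 0.21, adjusted p = 0.00982 by limma), a call lost with 75th percentile scaling, on the values as deposited and within each set of sorts. It was 2.07-fold lower in the 2 dividing populations (-1.05 ± 0.12, adjusted p = 1.23e-07 by limma; -1.09 within sorts 1 to 3 and -1.01 within sorts 8 to 11), a call kept under all 12 alternatives and without any 1 preparation.

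The log2 ratio of the Eif4a2 to the Eif4a1 reading was -1.02 to 0.44 in pre-BI and -0.19 to 0.41 in large pre-BII preparations. It was 1.33 to 2.75 in small pre-BII, 1.49 to 2.59 in immature and 2.42 to 2.91 in mature preparations. The ratio was thus higher in each of the 15 later preparations than in any of the 11 earlier ones. Both genes were already called in opposite directions between these populations, so this separation is no further support. How many other gene pairs separate in this way was not computed. Because the readings come from different probe sets, a ratio of 0 does not mean equal amounts.

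**Figure D2:**
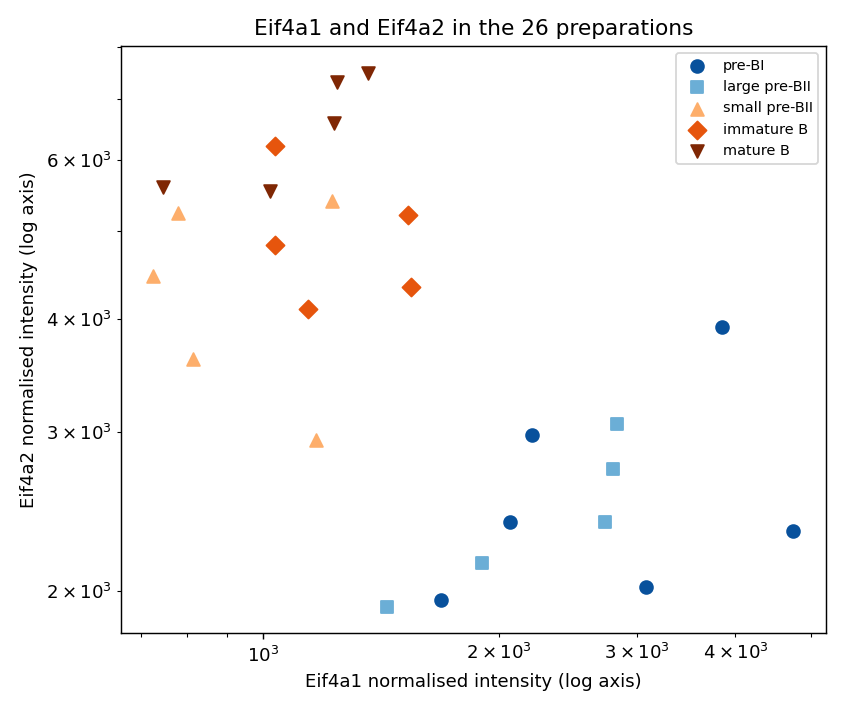
Normalised intensity of Eif4a1 (x axis, log scale) against Eif4a2 (y axis, log scale) in the 26 preparations, 1 point each, coloured by population. The pre-BI and large pre-BII preparations lie to the lower right and the 15 later preparations to the upper left.

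The other called initiation factors were less evenly measured. Eif5a encodes the hypusine-bearing factor that also helps elongation across difficult peptide bonds. It was 431, 460 and 92 in pre-BI sorts 1 to 3 and 2914, 3557 and 1930 in sorts 8 to 10, and 736, 248, 1397, 1436 and 859.6 in large pre-BII cells. It exceeded the noise limit in 9 of these 11 preparations and in 4 of the 15 later ones, whose highest values were 960.1, 1508 and 575 in small pre-BII, immature and mature cells. With values raised to the limit the difference was 2.33-fold (1.22 ± 0.42), most later preparations lying at the limit itself, and the fitted difference, at the lower floor, was 4.16 (adjusted p = 0.000942 by limma). The raised difference was 0.42 within sorts 1 to 3 and 1.98 within sorts 8 to 11, and a second probe set never exceeded the limit.

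Eif3l, a subunit of the eIF3 complex, had means of 1546, 1453, 997, 1077 and 1120 from pre-BI to mature cells. It was 1.41-fold higher in the 2 dividing populations (0.50 ± 0.13, adjusted p = 0.0241 by limma; 0.62 by a second probe set of the same target, adjusted p = 0.011), with overlapping preparations and with the call lost without pre-BI or large pre-BII sort 10 (adjusted p up to 0.0581). Eif2d, a factor that can place the initiator tRNA independently of eIF2, was 1.40-fold higher (0.49 ± 0.19, adjusted p = 0.0454 by limma), exceeded the limit in only 10 of 26 preparations and lost the call with sort number as a replicate block and when any 1 of 17 preparations was left out (adjusted p up to 0.116). A second Eif2d probe set gave 0.014 (adjusted p = 0.689 by limma). Eif2b5, the catalytic subunit of the eIF2B exchange factor, was called lower in small than in large pre-BII cells (fitted difference -3.11, adjusted p = 0.046 by limma). It exceeded the limit in 4 of 5 large and 1 of 5 small preparations, the raised difference was -0.53 ± 0.20, and it lost the call when any 1 of 15 preparations was left out (adjusted p up to 0.177). A second Eif2b5 probe set gave -0.12 (adjusted p = 0.688 by limma). The remaining eIF2B subunits Eif2b1, Eif2b2 and Eif2b4 were not called in any comparison.

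Most of the eIF3 and eIF2 subunits were not called, which is also true of all tested probe sets (14.8% called by the F test). Eif3b, an eIF3 scaffold, had means of 3094 in pre-BI and 1747 to 2155 in the other populations (adjusted p of the F test 0.0605 by limma; 0.0222 with sort number as a replicate block). Eif2a, an initiator tRNA carrier, was highest in large pre-BII (1838) and lowest in mature cells (951), with an adjusted p of the F test of 0.0878 by limma, and 0.00476 with the block. Eif1a, a scanning factor, averaged 264 in large pre-BII and 379.6 to 509 elsewhere, and was called only under some alternatives, by the F test for example with 2% trimmed mean scaling (adjusted p = 0.0194 by limma). Eif2s2, the beta subunit of eIF2, averaged 1226 in pre-BI and 663 in immature cells and was not called (adjusted p = 0.031 between dividing and later cells with sort number as a replicate block, by limma). The eIF3 subunits Eif3k and Eif3m were highest in large pre-BII (911 and 883) and lowest in mature cells (478 and 561), again not called. Eif4g2, a relative of the eIF4G scaffold, spanned 1853 to 2897 and Eif4b, the helicase cofactor, 679 to 1203, neither called.

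Among the proteins that restrain translation none was called between the dividing and the later populations without the replicate block at the floor used here. That comparison called 14.8% of all tested probe sets. Eif4ebp1, which encodes an inhibitor of the cap-binding protein, had means of 957, 833, 1278, 1113 and 835 in order of stage (adjusted p of the F test 0.428 by limma). Its relative Eif4ebp2 read 983 to 4832 in pre-BI, 727 to 5634 in large pre-BII and 190.1 to 5795 in small pre-BII cells (adjusted p of the F test 0.613 by limma). Within small pre-BII cells sorts 1 and 3 read 5795 and 4023 and sorts 8 to 10 read 190.1 to 299, so the preparations split by sort. With sort number as a replicate block Eif4ebp2 was called by the F test (adjusted p = 0.00163 by limma). It was also called as higher in dividing than in later cells (0.000139) and as lower in small than in large pre-BII cells (0.0199). A second Eif4ebp2 probe set exceeded the limit in all 26 preparations. In the main fit it gave 0.13 between dividing and later cells (adjusted p = 0.733 by limma). From large to small pre-BII cells it went the other way (0.48, adjusted p = 0.468 by limma). Eif4e2, a cap-binding protein that blocks initiation, varied over the 5 populations (442, 600.5, 522, 347 and 283; adjusted p of the F test 0.0469 by limma), a call lost when any 1 of 20 preparations was left out (adjusted p up to 0.152) and with sort number as a replicate block. With the floor at the noise limit Eif4e2 was also called higher in dividing cells (adjusted p = 0.0443 by limma).

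Of the 6 elongation factors 1 was called between dividing and later cells (14.8% of all tested probe sets were) and 1 was steady. Eef1d, a guanine nucleotide exchange subunit of eEF1, had means of 4605, 3461, 2763, 2661 and 2756 and was 1.46-fold higher in the 2 dividing populations (0.55 ± 0.17, adjusted p = 0.00882 by limma; 0.28 within sorts 1 to 3 and 0.75 within sorts 8 to 11). Large pre-BII sort 2, at 1965, lay under all 15 later preparations, so the populations overlapped. The F test also called Eef1d (adjusted p = 0.0405 by limma), a call lost when any 1 of 16 preparations was left out (adjusted p up to 0.145). Eef1b2, of the same complex, had means of 3311 to 5155 and was called only by the F test with sort number as a replicate block (adjusted p = 0.0229 by limma). Eef1g had means of 689.8 to 1036 and was not called; both were highest in mature cells. Eef2, the translocase, averaged 3142 to 4746 and was not called, with small pre-BII preparations from 510 to 5894.

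Eef1a1, the carrier of aminoacyl-tRNA and among the most abundant transcripts, had means of 18019 to 18954. On the b set it held a rank from 2 to 7 among all probe sets on every array, and quantile normalisation gives such ranks nearly the same value on each array. As deposited it was 13993 to 20717, while the trimmed means of the b-set arrays spanned 4.22-fold. The 3 other Eef1a1 probe sets, on the first set, gave differences of -0.24, -0.26 and -0.03 between dividing and later cells, none called.

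**Figure D3:**
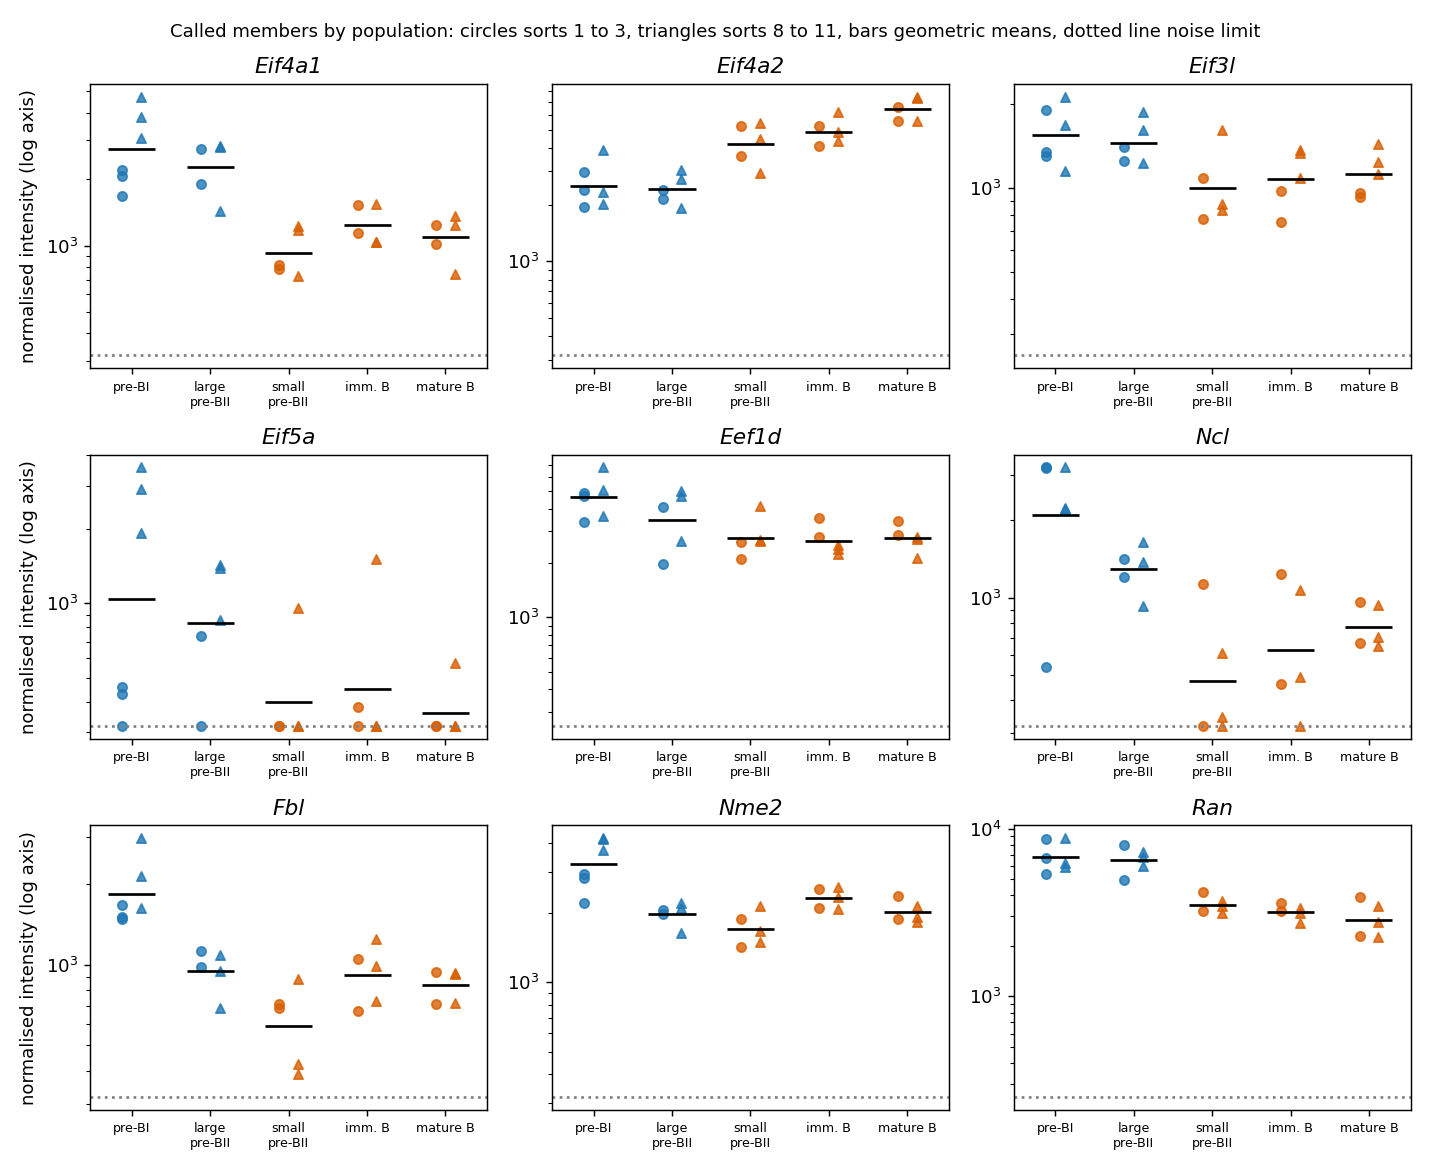
Normalised intensity (y axis, log scale) of 9 called genes in each preparation by population (x axis); circles, sorts 1 to 3; triangles, sorts 8 to 11; bars, geometric means; dotted line, noise limit, to which lower values were raised. Ran separates the blue from the orange preparations, with 4944 as the lowest of the former and 4201 as the highest of the latter.

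In the nucleolus Ncl and Fbl were called and the others were not (14.8% of all tested probe sets were called between dividing and later cells). Ncl, which encodes nucleolin, a chaperone of ribosomal RNA transcription and assembly, was 537 to 3196 in pre-BI cells (median 2703.8) and 1411, 1203, 1381, 1643 and 926 in large pre-BII cells. It was 1131, 293, 117, 345 and 609 in small pre-BII, 1230, 461, 249, 492 and 1074 in immature, and 964, 667, 648, 703 and 933 in mature cells. Pre-BI sort 2, at 537, stood apart from the next lowest, 2213, and small pre-BII sort 1 overlapped the large cells. Ncl was 2.69-fold higher in the 2 dividing populations (1.43 ± 0.28, adjusted p = 0.000338 by limma; 1.09 within sorts 1 to 3 and 1.70 within sorts 8 to 11). It fell 2.72-fold from large to small pre-BII cells (-1.44 ± 0.38, adjusted p = 0.0261 by limma), a call lost without large pre-BII sort 1, 8 or 9 or small pre-BII sort 3, 8 or 9 (adjusted p up to 0.113).

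Fbl, which encodes the methyltransferase of box C/D particles, was 1488 to 2975 in pre-BI cells (median 1652) and 979.6, 1125, 945, 1084 and 685 in large pre-BII cells. Every large pre-BII preparation lay under every pre-BI one. Fbl fell 1.94-fold between them (-0.96 ± 0.20, adjusted p = 0.0366 by limma), a call lost without sort 1, 8, 9 or 10 of either population (adjusted p up to 0.138). It was 710, 686, 423, 885 and 389.7 in small pre-BII, 671 to 1245 in immature and 713 to 935 in mature cells, and 1.73-fold higher in the 2 dividing populations than in the later 3 (0.79 ± 0.14, adjusted p = 0.000608 by limma). The large pre-BII values lay within the range of the 15 later preparations, and all 6 pre-BI preparations lay above it. The share of all tested probe sets that separate pre-BI from large pre-BII or from later preparations in this way was not computed.

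Nop56, a core protein of the same particles as fibrillarin, had means of 457 in pre-BI and 319.9 to 361 elsewhere and was not called. Nop10, of the box H/ACA particles, averaged 3956 (pre-BI) against 2329.6 (large pre-BII); this difference was not called, but was called with a higher floor (adjusted p = 0.0483 at the 60th percentile and 0.0381 at the noise limit, by limma), without pre-BI sort 1 (0.0392) or large pre-BII sort 2 (0.0367), and with sort number as a replicate block (0.0146). Nop53, which acts in maturation of the large subunit, averaged 2383 in pre-BI and 3969 in small pre-BII cells (adjusted p of the F test 0.109 by limma; 0.00623 with the block, and 0.00451 between dividing and later cells). Nop16, another large-subunit assembly factor, and Nolc1, a nucleolar chaperone of small RNA particles, were not called, and Nolc1 exceeded the limit in 2 of 26 preparations.

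Ran was 5387 to 8745 in pre-BI cells (median 6439) and 8003, 4944, 6029, 7232 and 6743 in large pre-BII cells. It was 4201, 3215, 3458, 3130 and 3722 in small pre-BII, 3602, 3235, 3126, 2736 and 3381 in immature, and 3897, 2277, 2262, 2767 and 3479 in mature cells. No preparation of the 2 dividing populations overlapped a later one, which held for 1.72% of all tested probe sets. Ran was 2.09-fold higher in the former (1.06 ± 0.10, adjusted p = 1.31e-08 by limma; 0.96 within sorts 1 to 3 and 1.13 within sorts 8 to 11) and fell 1.84-fold from large to small pre-BII cells (-0.88 ± 0.14, adjusted p = 0.00179 by limma). On the values as deposited, with no scaling between arrays, both calls were lost.

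Nme1 and Nme2 encode the paired subunits of nucleoside diphosphate kinase, which makes GTP among other nucleotides. Nme2 was 2201 to 4199 in pre-BI cells (median 3349) and 2056, 1985, 2087, 2201 and 1634 in large pre-BII cells, and fell 1.65-fold between them (-0.72 ± 0.17, adjusted p = 0.0232 by limma). The fall was 0.39 within sorts 1 to 3 and 1.04 within sorts 8 to 11 on the log2 scale, and the call was lost without pre-BI sort 8, 9 or 10 or large pre-BII sort 10 (adjusted p up to 0.0866). It was 1421 to 2132 in small pre-BII, 2067 to 2599 in immature and 1827 to 2358 in mature cells, so large pre-BII cells averaged less (1982) than immature cells (2314). The mean of the 2 dividing populations was 1.28-fold that of the later 3 (0.35 ± 0.10, adjusted p = 0.0364 by limma). Of the 2, only pre-BI cells (3262) averaged more than each later population. The call was lost when any 1 of 14 preparations was left out (adjusted p up to 0.0769).

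Nme1 had means of 809.6, 659, 744, 783 and 719 and was not called. Its difference between dividing and later cells was -0.03, with a 95% interval of -0.36 to 0.30. The interval of Nme2, 0.12 to 0.59, overlaps that of Nme1, and the difference between the 2 genes was not tested. Probe sets of 8 genes, Eif4a1, Ran and Nme2 among them, have the suffix by which Affymetrix marked possible matches to related transcripts, so these readings are uncertain where near-identical copies exist.

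By the criteria used here 11 genes were steady: no call, above the noise limit in at least 20 of 26 preparations and population means within 1.5-fold. They were Eef1a1, the initiation factors Eif1b, Eif3a, Eif3c, Eif3e, Eif3h, Eif2s3x, Eif2b2 and Eif2b4, and Nme1 and Nop56. The 95% intervals of their differences between dividing and later cells lay between -0.94 and 1.02, and 10 of 11 were inside 1 log2 unit in both directions, so smaller differences are not resolved here. None of the 11 was called in any comparison under the 12 alternatives or without any 1 preparation. Because they were chosen for having no call in these same data, this is no independent support. Of the remaining genes, 21 were neither called nor steady.

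**Figure D4:**
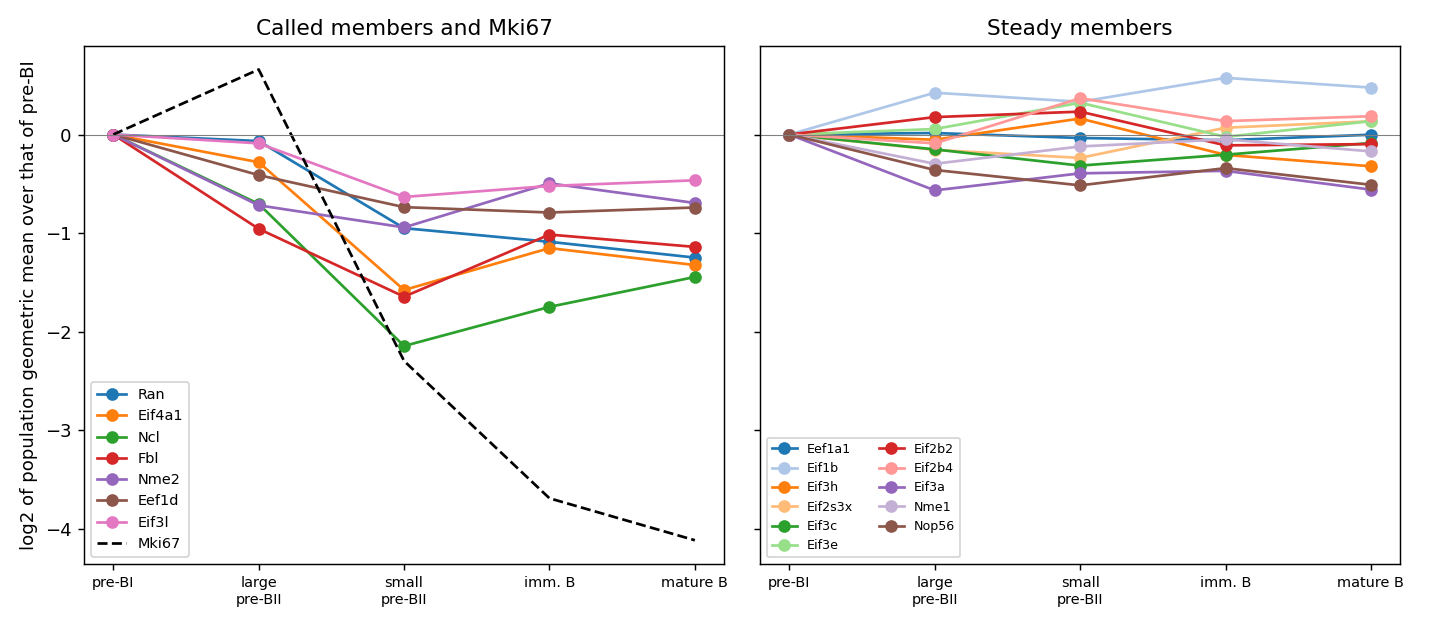
Log2 of each population's geometric mean over that of pre-BI cells (y axis) in order of stage (x axis) for 7 called genes with Mki67, a marker of cycling cells (left, dashed), and for the 11 steady genes (right). Mki67 is highest in large pre-BII cells, where all 7 called genes lie under their pre-BI level, a difference called for Fbl and Nme2 only.

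The genes called higher in the mean of the 2 dividing populations did not all follow most of the markers of cycling cells. Mki67, a nuclear antigen of dividing cells, had means of 7938 (pre-BI), 12542 (large pre-BII) and 458 to 1615 in later cells. Means of Ccna2, Prc1 and Top2a were also higher at the large pre-BII stage (4159, 3190 and 4206) than at the earlier one (2042, 1309 and 1429). Tk1, a marker of the same list, went the other way, from 1304 to 1128. Between pre-BI and large pre-BII cells Eif4a1 went from 2748 to 2262, Ran from 6809.6 to 6503 and Eif3l from 1546 to 1453. Eef1d went from 4605 to 3461 and Ncl from 2101 to 1290, and none of these differences was called. Fbl and Nme2, by contrast, were called lower in large pre-BII cells. The highest single granulocyte, macrophage and T and NK cell marker sums were also in pre-BI preparations. Only the T and NK cell sums of pre-BI preparations all lay above those elsewhere, while the granulocyte and macrophage ranges overlapped. The part of such cells in these results was not tested.

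The other genes of the pathway came from lists of 69 genes, of which 65 were tested. Between dividing and later cells 9 were higher and 2 lower, against 7.8% and 6.95% of all tested probe sets. Partners of Ran were called in its direction: 4 of 6 tested were higher, with Rangap1, its GTPase activator, at 3.03-fold (1.60 ± 0.21, adjusted p = 1.15e-05 by limma), Ranbp1, a cofactor of that step, at 2.57-fold (1.36 ± 0.28, adjusted p = 0.00244) and the exporter Xpo1 at 1.96-fold (0.97 ± 0.18, adjusted p = 0.000951). From large to small pre-BII cells Rangap1 fell 3.92-fold (adjusted p = 0.000469 by limma) and Xpo1 2.58-fold (adjusted p = 0.00237). Rcc1, the exchange factor of Ran, exceeded the limit in 3 preparations and was not called.

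Of 20 ribosome assembly genes 2 were higher in dividing cells, Gar1, a box H/ACA protein (fitted difference 1.92, adjusted p = 9.23e-05 by limma; above the limit in 5 of 15 later preparations), and Brix1 (1.77-fold, 0.82 ± 0.21, adjusted p = 0.0136). Between neighbouring populations Rcl1 fell from pre-BI to large pre-BII cells (2.13-fold, adjusted p = 0.0358 by limma), Gar1 from large to small pre-BII cells (adjusted p = 0.00174; 1 of 5 small preparations above the limit) and Wdr12 from small pre-BII to immature cells (adjusted p = 0.0121; no immature preparation above the limit). None of 7 genes of RNA polymerase I and its factors and none of 5 genes of the mTOR pathway was called in any of the 5 comparisons. These comparisons called 1.35% to 14.8% of all tested probe sets, so few calls would be found in lists this short. Of 14 aminoacyl-tRNA synthetases only Aars was higher in dividing cells (1.80-fold, adjusted p = 0.00531 by limma), and among 6 other translation proteins Pabpc1, the poly(A)-binding protein (1.58-fold, adjusted p = 0.0128 by limma), and Gspt1, a release factor (0.58 ± 0.16, adjusted p = 0.0143), were higher.

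In the Myc network no gene was higher in dividing cells and 2 of 7 were lower. Max, the obligate partner of Myc, was 1.56-fold lower (-0.64 ± 0.19, adjusted p = 0.00696 by limma) and rose 1.99-fold from large to small pre-BII cells (adjusted p = 0.0209). Mnt, a repressor that also binds Max, was at least 1.29-fold lower (adjusted p = 0.00607 by limma), with no dividing preparation above the noise limit. Myc and Mycn did not exceed the limit in any preparation, so these arrays give no level for either.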

How the data were processed

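Transcript levels of 26 preparations of 5 sorted B lineage populations were read on 2 array sets. The authors deposited for each set a table of linear intensities, 1 value for each probe set on each array, some of them negative; their extraction, summary and scaling are not given in the sources used here. Symbols came from the platform annotation.

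Control probe sets (55 per set) were removed and each set was quantile-normalised between arrays, whose 2% trimmed means spanned 5.6-fold and 4.22-fold. Arrays of 1 preparation were averaged. Lower values were raised to the table's 40th percentile before log2. A probe set was tested if 5 or more of 26 preparations exceeded this floor (5019 and 5210 did), with limma 3.58.1 in R 4.3.3 (lmFit, eBayes with trend, all 5 populations in 1 fit per set). Benjamini-Hochberg adjustment ran over both sets together, at 0.05. The noise limit is 2 robust standard deviations, taken from the negative values.

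Groups came from the labels. Sort numbers are in the labels, which do not say what equal numbers share. Deviations from population means correlated at 0.11 to 0.30 between equal numbers of large pre-BII and pre-BI cells, 0.14 to 0.25 for immature and small pre-BII and 0.12 to 0.21 for mature and immature cells, and so were taken to pair. They correlated at 0.0032 to 0.24 for small and large pre-BII cells (1 of 4 over 0.1), which were not. The main fit has no sort term.

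The genes and lists were chosen with earlier results of these data known. The text names every called gene, the others by role, and at most 3 genes of each pathway list per direction. The alternatives were other scalings, floors and filters, a block for sort number or for sorts 1 to 3 against 8 to 11, fits within each of these, 1 fit for both sets, the mean over probe sets, and leaving out each preparation. Scripts were tested on simulated data.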

Additional observations from a re-analysis of the deposited data

Results flagged for a closer look

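In 59 groups of 5 or 6 preparations, formed by each called gene and population, 8 held a preparation whose gap to its nearest neighbour was wide against the group's range by Dixon's 95% criterion. Chance gives about 1 in 20 such groups where values are not tied. That rate does not hold for groups in which values raised to the noise limit are equal.

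For Eif5a the highest preparation stood apart in 3 populations: small pre-BII sort 10 at 960.1, immature sort 11 at 1508 (next 380.3) and mature sort 8 at 575. For Eif2b5 it was small pre-BII sort 8 at 405, immature sort 2 at 579 and mature sort 8 at 359. For Eif2d it was mature sort 8 at 294. In all 7 of these cases the rest of the group lay near or under the noise limit, to which values were raised before the gaps were measured. For Ncl the lowest pre-BI preparation, sort 2 at 537, stood apart from the next at 2213; without it the difference of Ncl between dividing and later cells remained called.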

How the results depend on the processing

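Of 26 calls for single genes, compared under 12 alternatives, 246 of 312 kept direction and side of the threshold, 66 lost the call and 0 reversed. Leaving out each preparation in turn gave 574 kept, 102 lost and 0 reversed of 676. The call of Eif4a1 between dividing and later cells and both calls of Eif4a2 over populations and between dividing and later cells were kept throughout.

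The F test called 9 genes, 5 on the values as deposited, 1 within sorts 1 to 3, 14 with sort number as a replicate block, and 7 to 10 without 1 preparation. Large pre-BII against pre-BI gave 2, but 0 with 75th percentile scaling, as deposited and within sorts 1 to 3, 1 within sorts 8 to 11, 4 with the floor at the noise limit and 0 to 3 without 1 preparation. Small against large pre-BII gave 5, but 2 as deposited and within sorts 8 to 11, 1 within sorts 1 to 3, 3 with no filter and 3 to 5 without 1 preparation. Dividing against later cells gave 10, but 3 within sorts 1 to 3, and 7 to 11 without 1 preparation; with sort number as a replicate block it gave 13, of which 9 were shared and Eif2d was lost (17% of all tested probe sets were called). Immature against small pre-BII and mature against immature gave 0 under all of these. Fits within a set of sorts use fewer preparations; the cause of the other changes was not tested. The calls most often lost when 1 preparation was left out were the F tests of Eif4e2 (20 times) and Eef1d (16), Eif2d (17) and Nme2 (14) between dividing and later cells, and Eif2b5 (15) between large and small pre-BII. Values under the noise limit, 8 genes in all preparations, have no order.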
